A study of Saccharomyces cerevisiae with 12 samples.

Results

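Open chromatin on the reversed synthetic human locus synHPRT1R was set against that on synHPRT1, each held on a yeast artificial chromosome (YAC) in budding yeast. The comparison took the 3 peak lists of HPRT1R YAC libraries and the 3 lists of HPRT1 YAC libraries, 6 of the 12 libraries of the series. Every peak on the construct contig and on the 16 nuclear chromosomes was used, 6296 of 13746 peaks in the series, with 164 contig peaks in HPRT1R YAC libraries and 154 in HPRT1 YAC libraries. The contig past 100 kb is vector that both constructs share, and it served as an internal reference. The stretch before 100 kb is called the insert here.

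Both groups were BY4741, a haploid laboratory strain of mating type a that lacks working HIS3, LEU2, MET15 and URA3. The HPRT1R YAC cells carried the synHPRT1R YAC and the HPRT1 YAC cells the synHPRT1 YAC, with no other difference in the labels. All cultures grew at 30 °C in SC-Leu, synthetic medium without leucine, for 6 h after dilution to an OD of 0.1, and were taken near an OD of 0.6. Cells were made into spheroplasts with zymolyase, tagmented for 30 min at 37 °C and amplified with 11 PCR cycles. The question was whether these human-derived sequences are accessible in yeast and how they compare with the host genome. The labels do not say whether the replicates were separate transformants or cultures, so a p-value here measures the spread between these libraries, which may be technical.

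HPRT1 encodes a human enzyme that salvages purine bases. Its sequence, read backwards without complementing it, keeps the base composition and the runs of A or T but loses the coding sense and most binding motifs. In yeast, open chromatin sits mainly at promoters, where AT-rich stretches and general regulatory factors keep nucleosomes away. ATAC-seq reports it through the Tn5 transposase, which inserts sequencing adapters into accessible DNA. A peak is a stretch with more cuts than its surroundings, its summit is the highest point, and its fold enrichment is the summit pileup over the local background, as the authors' peak caller gave it.

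The lists held 982 to 1114 peaks, the shortest being that of HPRT1R YAC replicate 3, and no peak stood with the same edges and fold enrichment in more than 1 list (0 such cases). The number of reads per library is unknown from these lists. The deposited fold enrichment and p-value together fix the whole read pileup and the local background at a summit, and both were recovered for 99.9% of peaks and for all contig peaks. As a library-wide level, the smallest local background among the nuclear summits was taken, which was 5.63, 5.82 and 5.13 reads in HPRT1R YAC replicates 1, 2 and 3, and 5.75, 6.93 and 5.82 reads in HPRT1 YAC replicates 1, 2 and 3. HPRT1 YAC replicate 2 thus had the highest level of the 6 libraries.

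The shared vector was open at the same places on both YACs. Each construct had 4 vector regions with a peak in 3 of 3 libraries, where a region joins peaks that overlap by at least 1 bp over the libraries of a construct. The first lay at contig positions 100405 to 101018 on HPRT1R, with fold enrichments of 4.03, 4.31 and 3.81 in replicates 1 to 3, and at 100037 to 101046 on HPRT1, with 3.56, 3.11 and 3.89. The second lay at 103859 to 104555 on HPRT1R (3.38, 3.60 and 2.93) and at 103859 to 104558 on HPRT1 (3.32, 3.35 and 4.08). Start positions of that pair were identical and the ends 3 bp apart.

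The next vector region spanned 105581 to 106652 on HPRT1R, with fold enrichments of 3.70, 4.19 and 3.91, and 105599 to 106653 on HPRT1, with 4.15, 3.70 and 3.90. The widest spanned 110585 to 113924 on HPRT1R (4.82, 4.92 and 4.42) and 110609 to 113926 on HPRT1 (4.24, 4.10 and 5.28). One further region, at 105069 to 105425 on HPRT1, held a peak in replicate 2 alone, with a fold enrichment of 1.59. Which vector elements these regions cover was not analysed here.

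**Figure D1:**
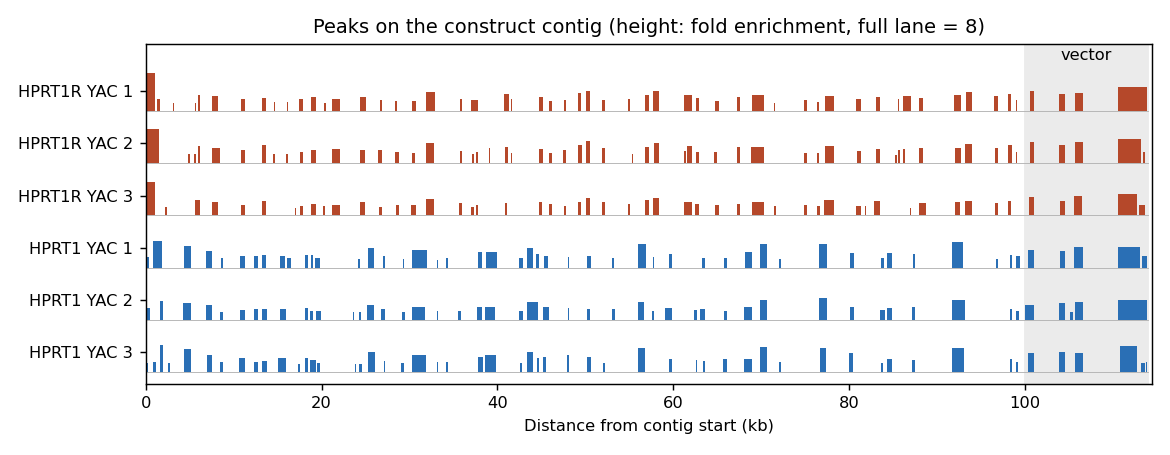
Peaks along the construct contig in the 3 HPRT1R YAC libraries (top lanes) and the 3 HPRT1 YAC libraries (bottom lanes), with distance from the contig start in kb on the x axis and fold enrichment as bar height. The 4 recurrent vector peaks past 100 kb stand at the same places in all 6 lanes, and the insert peaks recur within a construct. HPRT1R is drawn without being turned round, so the lanes do not set like insert sequence against like between constructs.

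Vector peaks did not separate the groups in number or in the share of the vector covered. They numbered 4, 5 and 5 in HPRT1R YAC libraries and 5, 5 and 6 in HPRT1 YAC libraries, and covered 39.6%, 35.3% and 35.3% of the vector in HPRT1R YAC libraries and 38.8%, 45.9% and 35.6% in HPRT1 YAC libraries. Both ranges overlapped. Relative to the chromosomes of the same library, the log2 difference of HPRT1R over HPRT1 was -0.17 for vector peak density (exact permutation p = 0.4, adjusted 0.686) and -0.01 for vector coverage (exact permutation p = 1, adjusted 1). Vector density moved to -0.28 without HPRT1R YAC replicate 3, to -0.021 without HPRT1R YAC replicate 1 and to -0.095 without HPRT1 YAC replicate 3. These and 10 other measures below form a family of 12, each tested with a two-sided exact permutation test over libraries and adjusted by Benjamini-Hochberg over the 12. With 3 libraries against 3 the smallest p such a test can give is 0.1, so none of the 12 could pass 0.05.

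Called insert peaks were slightly denser on HPRT1R than on HPRT1 once scaled to the chromosomes. The insert held 51, 52 and 47 peaks in HPRT1R YAC libraries and 46, 44 and 48 in HPRT1 YAC libraries, and these counts overlapped. Both inserts had nearly the same length, and the densities were 0.510, 0.520 and 0.470 peaks per kb on HPRT1R and 0.460, 0.440 and 0.480 on HPRT1. On the chromosomes of the same libraries they were 0.0862, 0.0836 and 0.0756 per kb with the HPRT1R YAC and 0.0829, 0.0819 and 0.0850 with the HPRT1 YAC. These densities count called peaks. Local background at insert summits was 8.14-fold to 10.1-fold the library-wide level on HPRT1R and 5.47-fold to 6.72-fold on HPRT1. Median fold enrichment was 2.30 to 2.72 at insert peaks against 3.15 to 3.57 at nuclear peaks, so peaks of lower fold were called on the insert. Whether the density differences reflect more open sites or this difference in read depth was not tested.

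Taken against the chromosomes of its own library, insert density was 1.11-fold higher on HPRT1R, a log2 difference of 0.15, and the groups did not overlap (exact permutation p = 0.1, adjusted 0.3). The lowest HPRT1R value by count, in replicate 3, came from the library with the fewest nuclear peaks. Without any 1 library the difference stayed between 0.13 and 0.17, but it depended on the peak threshold. Restricted to peaks enriched 3-fold or more it was 0.14 with overlapping groups (exact permutation p = 0.8), and restricted to a -log10 q of 10 or more it was 0.86, also with overlap (exact permutation p = 0.3).

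Insert summits stood closer together on HPRT1R. The median distance between neighbouring summits was 1806, 1762 and 1900.5 bp in HPRT1R YAC libraries and 2036, 2183 and 1975 bp in HPRT1 YAC libraries, with no overlap. The means were 1823 ± 70.8 bp on HPRT1R and 2065 ± 107 bp on HPRT1 (SD, n = 3 each), a difference of -241.8 bp (exact permutation p = 0.1, adjusted 0.3). Spacing and density use the same peaks and are not independent of each other. The limit from read depth given with the densities therefore holds for spacing too. The lack of overlap was lost at stricter thresholds, with -964.2 bp among peaks enriched 3-fold or more (exact permutation p = 0.6) and -565.3 bp at a -log10 q of 10 or more (exact permutation p = 0.3). The difference was -211.4 bp without HPRT1R YAC replicate 2 and -182.7 bp without HPRT1 YAC replicate 2 (exact permutation p = 0.2 in both). In both cases the libraries that remained still did not overlap. The longest distance between summits was 4059, 5668 and 3967 bp on HPRT1R and 4991, 6571 and 6142 bp on HPRT1.

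The share of the insert inside peaks did not separate the constructs. It was 24.2%, 23.2% and 22.8% on HPRT1R and 22.7%, 24.6% and 22.4% on HPRT1, against 2.63% to 3.11% of the chromosomes in HPRT1R YAC libraries and 3.08% to 3.27% in HPRT1 YAC libraries. The log2 difference relative to the chromosomes was 0.13 (exact permutation p = 0.3, adjusted 0.6). These shares also rest on called peaks, so the limit from read depth given with the densities holds for them. Median peak width on the insert was 403, 371 and 400 bp on HPRT1R and 433, 482.5 and 329.5 bp on HPRT1. The widths overlapped, with a difference of -23.7 bp (exact permutation p = 0.7, adjusted 0.933). Among stronger peaks they did not. At 3-fold or more the median widths averaged 589.3 bp on HPRT1R and 813.3 bp on HPRT1, a difference of -224 bp. At a -log10 q of 10 or more they averaged 489 bp on HPRT1R and 622.2 bp on HPRT1, a difference of -133.2 bp (exact permutation p = 0.1 in both). Leaving out HPRT1 YAC replicate 2 turned the difference over all peaks to 10.1 bp, and leaving out HPRT1 YAC replicate 3 gave -66.4 bp.

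Insert peaks were low relative to their surroundings on both constructs. Their median fold enrichment was 2.44, 2.72 and 2.35 in HPRT1R YAC libraries and 2.45, 2.30 and 2.60 in HPRT1 YAC libraries. Vector peaks of the same libraries had medians of 3.87, 4.19 and 3.81 on HPRT1R and 3.56, 3.35 and 3.89 on HPRT1, and nuclear peaks 3.57, 3.52 and 3.26 with the HPRT1R YAC and 3.55, 3.15 and 3.52 with the HPRT1 YAC. In each of the 6 libraries the insert median lay below the vector and the nuclear medians.

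Placed by fold enrichment among the nuclear peaks of its own library, the median insert peak stood at percentile 4.51, 14.0 and 1.97 on HPRT1R and 4.0, 4.15 and 7.89 on HPRT1. The groups overlapped (difference 1.47 points, exact permutation p = 0.8, adjusted 0.96). These percentiles compare folds over unlike backgrounds. Median summit pileup at nuclear peaks was 23, 23.5 and 20 reads with the HPRT1R YAC and 23, 25 and 24 reads with the HPRT1 YAC. At insert peaks it was 145, 125 and 121 reads on HPRT1R and 88, 107.5 and 87 reads on HPRT1. How far the low percentiles follow from peak calling at unlike depth was not tested. When insert and nuclear peaks were both restricted to enrichments of 3-fold or more, the direction turned and the groups no longer overlapped. The percentile then averaged 24.3 on HPRT1R and 58.4 on HPRT1, a difference of -34.1 points (exact permutation p = 0.1). Those peaks numbered 16, 20 and 7 on the HPRT1R insert and 13, 8 and 15 on the HPRT1 insert. The single strongest insert peak reached 7.73, 6.90 and 6.73 on HPRT1R and 5.29, 4.36 and 5.55 on HPRT1.

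Read background under the insert peaks was higher on HPRT1R, without overlap between libraries. The median local background at insert summits was 56.1, 47.4 and 51.8 reads on HPRT1R and 33.1, 46.6 and 31.9 reads on HPRT1. Divided by the library-wide level it was 9.98-fold, 8.14-fold and 10.1-fold on HPRT1R and 5.75-fold, 6.72-fold and 5.47-fold on HPRT1, so every HPRT1R YAC library lay above every HPRT1 YAC library. The ratio between the group means on the log2 scale was 1.57, a difference of 0.65 (exact permutation p = 0.1, adjusted 0.3). In a bulk culture, more copies of the YAC per cell and more cuts per copy cannot be told apart in this value.

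At vector summits the same measure overlapped between the groups. The vector background was 50.6, 42.8 and 43.4 reads on HPRT1R and 43.6, 59.5 and 37.6 reads on HPRT1. Over the library-wide level it was 9.0-fold, 7.36-fold and 8.45-fold on HPRT1R and 7.58-fold, 8.58-fold and 6.46-fold on HPRT1. The log2 difference was 0.14, or 1.10-fold (exact permutation p = 0.5, adjusted 0.75). It ran from 0.031 without HPRT1 YAC replicate 3 to 0.24 without HPRT1 YAC replicate 2, and was 0.074 without HPRT1R YAC replicate 1 and 0.22 without HPRT1R YAC replicate 2.

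Within a library, the insert-to-vector ratio of backgrounds compares stretches of the same YAC. It was 1.11, 1.11 and 1.19 on HPRT1R and 0.759, 0.783 and 0.848 on HPRT1. The insert thus lay above the vector in all 3 HPRT1R YAC libraries and below it in all 3 HPRT1 YAC libraries. On the log2 scale the means were 0.18 ± 0.06 on HPRT1R and -0.33 ± 0.08 on HPRT1 (SD, n = 3 each), a difference of 0.51 or 1.43-fold (exact permutation p = 0.1, adjusted 0.3). With single libraries left out it ran between 0.48 and 0.56, and with the vector boundary moved 2 kb further along it was 0.51. Among peaks enriched 3-fold or more the log2 means were 0.054 on HPRT1R and -0.42 on HPRT1, a difference of 0.47. The HPRT1R insert was then close to its vector. Only summits of called peaks enter these values.

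**Figure D2:**
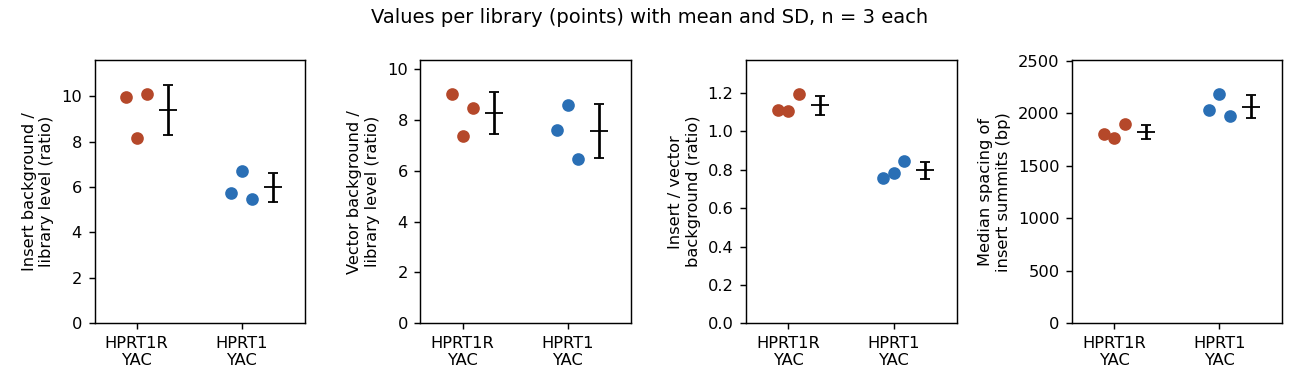
Values per library (points) with the mean and SD of each group (bars, n = 3 each), HPRT1R YAC left of HPRT1 YAC. From left to right the panels give insert and vector background over the library-wide level, their ratio, and the median spacing of insert summits in bp; the groups overlap in the vector panel and in no other.

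The deeper background went with higher statistical strength of the peaks at a like fold. Median summit pileup on the insert was 145, 125 and 121 reads on HPRT1R and 88, 107.5 and 87 reads on HPRT1, with no overlap. On the vector the medians were 196.5, 188 and 168 reads for HPRT1R and 147, 203 and 165.5 reads for HPRT1, with overlap. The median -log10 q of insert peaks was 21.0, 20.6 and 15.6 on HPRT1R and 11.1, 11.1 and 11.5 on HPRT1. Peaks with a -log10 q of at least 10 numbered 39, 38 and 31 on the HPRT1R insert and 24, 23 and 27 on the HPRT1 insert.

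The excess of background on HPRT1R was uneven along the insert. To compare like sequence with like, HPRT1R was turned round onto the HPRT1 coordinate and both were divided into bins of 10 kb, with the median background of each bin taken over that of the vector. All 3 HPRT1R YAC libraries lay above all 3 HPRT1 YAC libraries in 8 of 10 bins. From 50 to 60 kb the ratio to the vector was 0.933 to 1.11 on HPRT1R and 0.447 to 0.498 on HPRT1, a quotient of 2.11. Across the next bins up to 90 kb the quotient was 1.89, 1.82 and 1.80.

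Among the bins, background on HPRT1 itself was lowest near the middle of the insert. Its ratio to the vector was 1.13 at 20 to 30 kb, 1.17 at 30 to 40 kb, 0.714 at 40 to 50 kb, 0.477 at 50 to 60 kb and 0.605 at 60 to 70 kb. HPRT1R in the matching bins had 1.23, 1.16, 0.939, 1.00 and 1.14. The groups overlapped at 30 to 40 kb, where the quotient was 0.987, and at 90 to 100 kb, where it was 1.02. The quotient was 1.56 at 0 to 10 kb, 1.28 at 10 to 20 kb, 1.09 at 20 to 30 kb and 1.32 at 40 to 50 kb.

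Background was low at the start of both contigs, and the ends of the insert did not carry the difference alone. With insert peaks restricted to 10 to 90 kb, a choice made after seeing the profile, the difference in the insert-to-vector ratio was 0.39 on the log2 scale (exact permutation p = 0.1). With peaks restricted to regions that the constructs share in mirror image, described further on, it was 0.40 (exact permutation p = 0.1).

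**Figure D3:**
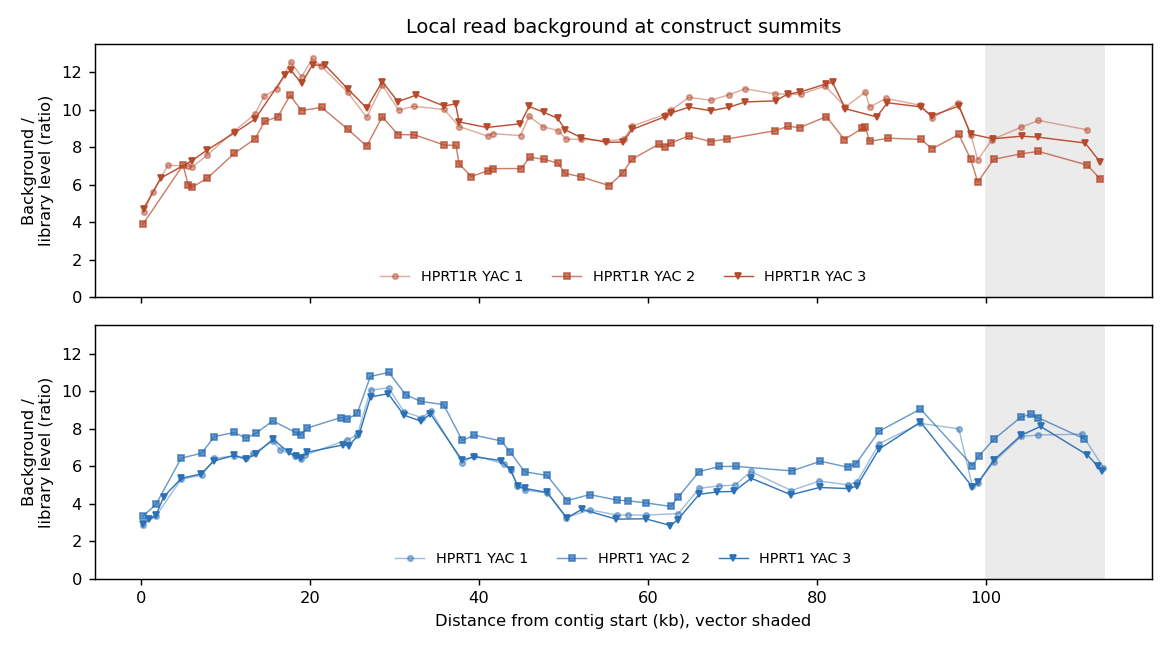
Local read background at each contig summit divided by the library-wide level (y axis, ratio) against distance from the contig start in kb, for the 3 HPRT1R YAC libraries (top) and the 3 HPRT1 YAC libraries (bottom), with the vector shaded. The libraries of a construct follow the same course, and HPRT1 is low at the contig start and around 50 to 60 kb.

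Insert peaks recurred between libraries of the same construct. HPRT1R had 56 insert regions, of which 40 held a peak in 3 libraries, 8 in 2 and 8 in 1. HPRT1 had 51, of which 38 held a peak in 3 libraries, 5 in 2 and 8 in 1. Regions seen in all 3 libraries were the stronger ones, with a median fold enrichment of 2.75 on HPRT1R and 2.62 on HPRT1, against 1.76 on HPRT1R and 1.81 on HPRT1 for regions of 1 library. An exception was an HPRT1R region at 39017 to 39174, seen in replicate 2 alone with a fold enrichment of 3.09.

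The strongest insert regions were those with the best mean rank of fold enrichment among the regions with a peak in 3 of 3 libraries, 8 per construct. First on HPRT1R was the stretch at contig positions 33 to 1672, beside the contig start, with fold enrichments of 7.73, 6.90 and 6.73 in replicates 1 to 3. The background there, 25.5, 22.6 and 24.2 reads, was the lowest on the insert in each library. Its summit pileups of 204, 162 and 169 reads were below those at 31882 to 32877, with 222, 209 and 186 reads. Next by fold enrichment came 50019 to 50582 (4.05, 4.38 and 3.55), then 57741 to 58336 (3.99, 3.99 and 3.47). After these stood 31882 to 32877, with 3.83, 4.08 and 3.32. The other 4, at 93170 to 94024, 98020 to 98504, 49125 to 49570 and 5540 to 6184, had mean fold enrichments between 3.31 and 3.51. All 8 were lowest in replicate 3, and 50019 to 50582 and 49125 to 49570 lie next to each other near the middle of the insert.

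On HPRT1 the stretch ranked first by fold enrichment was 831 to 1980, also near the contig start, with 5.29, 3.83 and 5.55. Its backgrounds were 19.2, 27.5 and 19.7 reads and its summit pileups 106, 108 and 114 reads. The pileups at 91714 to 93170 were higher, with 249, 262 and 242 reads. The stretch at 69867 to 70677 ranked second, with 4.88, 3.93 and 5.12. Those at 91714 to 93170 (5.14, 4.13 and 4.90) and 76605 to 77509 (4.78, 4.36 and 4.88) came after it. Summits of the stretch at 91714 to 93170 fell on the same base, 92237, in all 3 libraries. The remaining 4, at 55973 to 56856, 4231 to 5149, 43362 to 44710 and 25187 to 26123, had mean fold enrichments of 3.71 to 4.45. All 8 were lowest in replicate 2, the library with the highest library-wide level.

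Both inserts also had long stretches without a called peak. The longest without a peak in any of the 3 libraries ran from 88711 to 91967 on HPRT1R, 3.257 kb, and from 72215 to 76604 on HPRT1, 4.39 kb. The next longest were 3.121 kb on HPRT1R, from 71701 to 74821, and 4.266 kb on HPRT1, from 87448 to 91713. The HPRT1 stretches each end at one of its 8 strongest regions. The lists give no read level inside these stretches, so whether their chromatin is closed was not tested.

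Since HPRT1R is the reversed sequence of HPRT1, a position on one corresponds to a mirrored position on the other. The alignment was taken from the 6 libraries with the constructs integrated on chromosome XI, which are outside the comparison, as the sum of mirrored positions at which their peaks overlapped most. That sum was 100789, and the best sum of the YAC libraries themselves was 100752, 37 bp away. That integrated and YAC peaks of a construct share its sequence is part of the design.

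At that alignment, consensus regions (a peak in at least 2 of 3 libraries; 48 on HPRT1R and 43 on HPRT1) shared 12916 bp, which was 47.3% of the HPRT1R and 46.2% of the HPRT1 consensus bases. HPRT1 consensus regions covered 28.0% of its insert, the share that placement without regard to position would meet, so the overlap was 1.69-fold higher. Without reversal, the overlap was 33.8% at the alignment of the integrated libraries and 41.5% at the best alignment of the YAC libraries. In the 9 pairings of a single HPRT1R list with a single HPRT1 list, 41.9% to 48.3% of HPRT1R peak bases fell on mirrored HPRT1 peaks, against 28.0% to 34.9% without reversal. These ranges did not touch.

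**Figure D4:**
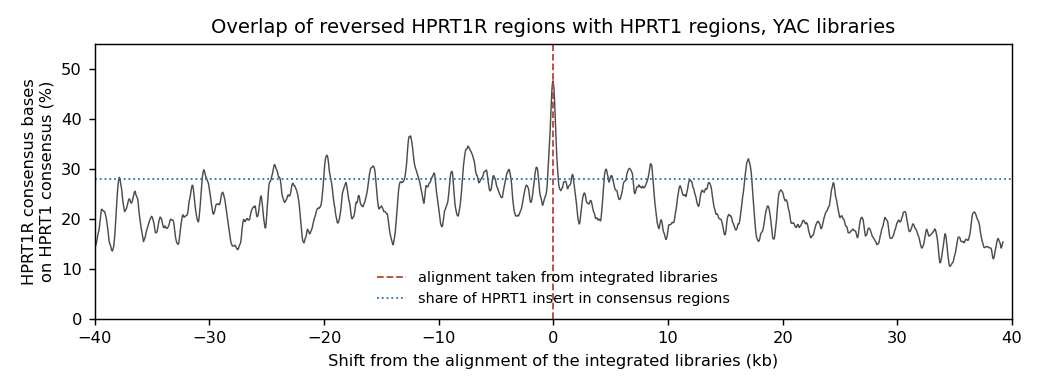
Percentage of HPRT1R consensus bases that fall on HPRT1 consensus regions after reversal (y axis) as the alignment is shifted in kb (x axis), YAC libraries only; the dotted line is the share of the HPRT1 insert in consensus regions, 28.0%. The curve peaks at the alignment taken from the integrated libraries, and its highest value more than 1 kb away is 36.6%.

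In all, 29 pairs of regions overlapped in mirror image by at least 50% of the shorter region. They held 29 of 48 HPRT1R regions (60.4%) and 28 of 43 HPRT1 regions (65.1%). How many such pairs random placement would give was not computed. The median distance between mirrored summits was 114 bp, 17 pairs had summits within 200 bp, and the largest distance was 1429 bp. Fold enrichment was not ranked alike over the overlapping regions. Over the 20 pairs with a peak in 3 of 3 libraries on both constructs, Spearman's rho of the mean ranks was -0.04. These 20 points share their libraries and are a description. They include the pair with summits 1429 bp apart, and fold enrichment is taken over backgrounds that differ between the constructs.

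The 6 pairs with the best joint rank were spread over the insert. One joined 93170 to 94024 on HPRT1R, mean fold enrichment 3.51, with 6905 to 7550 on HPRT1, mean 3.29, and its summits lay 37 bp apart. Another joined 56793 to 57291 on HPRT1R (3.15) with 43362 to 44710 on HPRT1 (3.88), 54 bp apart. The widest overlap of the 6, 1469 bp, joined 68895 to 70363 on HPRT1R (3.05) with 30241 to 31942 on HPRT1 (3.28). In these 3 pairs the means of both constructs lay above 3.

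The other 3 pairs were less even. Stretch 31882 to 32877 had a mean of 3.74 on HPRT1R, against 2.91 at its mirror image 68071 to 68971 on HPRT1. At 50019 to 50582 the HPRT1R mean was 3.99, against 2.62 at 50142 to 50659 on HPRT1, close to the centre of reversal. The opposite held for 7553 to 8394 on HPRT1R with 2.90, against 4.72 at 91714 to 93170 on HPRT1, and here the summits lay 736 bp apart.

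Still larger contrasts stood outside those 6 and were picked after their values were seen. HPRT1R at 30202 to 30782 had fold enrichments of 2.08, 2.13 and 2.11, against 4.88, 3.93 and 5.12 at the mirrored 69867 to 70677 on HPRT1, with summits 46 bp apart. HPRT1R at 57741 to 58336 had 3.99, 3.99 and 3.47, against 1.88, 1.83 and 1.91 at 42440 to 42956 on HPRT1, with summits 24 bp apart. Mirrored places thus had a high fold enrichment on one construct and a low one on the other, in both directions. The backgrounds were 53.4 reads on HPRT1R and 32.5 reads on HPRT1 at the first of these pairs, and 46.7 reads on HPRT1R and 40.9 reads on HPRT1 at the second. Summit pileups at the first pair were closer, with 118, 109 and 114 reads on HPRT1R and 144, 166 and 143 reads on HPRT1. At the second pair they were 208, 174 and 162 reads on HPRT1R and 67, 94 and 71 reads on HPRT1.

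Other strong regions had no mirrored partner. On HPRT1R these were led by 98020 to 98504 (3.34, 3.62 and 2.98 in replicates 1 to 3), 49125 to 49570 (3.68, 3.66 and 2.80), 5540 to 6184 (3.22, 3.55 and 3.15) and 77159 to 78322 (3.07, 3.45 and 3.21). After them came 82883 to 83515 and 96465 to 96888, with means of 2.83 and 2.86. On HPRT1 the leading ones were 76605 to 77509 and 55973 to 56856, with means of 4.67 and 4.45. The next was 4231 to 5149 (4.32, 3.45 and 4.78). Weaker ones followed at 18131 to 18438, 47953 to 48183 and 98297 to 98551, with means of 2.62, 2.74 and 2.45. Of the 8 strongest regions, 5 on HPRT1R and 5 on HPRT1 were in a mirrored pair. One of these, 33 to 1672 on HPRT1R, met 98945 to 99413 on HPRT1 only by overlap, with summits 1429 bp apart.

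The host chromosomes looked alike under both YACs. Nuclear peaks numbered 1041, 1009 and 913 with the HPRT1R YAC and 1001, 988 and 1026 with the HPRT1 YAC (difference -17.3, exact permutation p = 0.9, adjusted 0.982). They covered 3.10%, 3.11% and 2.63% of the chromosomes with the HPRT1R YAC and 3.20%, 3.08% and 3.27% with the HPRT1 YAC (exact permutation p = 0.3, adjusted 0.6). Without HPRT1R YAC replicate 3 the difference in number was 20 in favour of HPRT1R (exact permutation p = 0.4). Shares of peaks found again in another list were alike across and within constructs. The median share of a list's nuclear peaks met in another list was 72.5% within HPRT1R and 73.3% within HPRT1. Across constructs it was 73.5% of HPRT1R peaks met in an HPRT1 list and 74.2% of HPRT1 peaks met in an HPRT1R list.

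Joined over the 6 libraries, nuclear peaks formed 1648 regions. A peak in all 6 libraries marked 475 of them, with a median fold enrichment of 3.91, and 471 were seen in 1 library. Regions with a peak in 3 of 3 HPRT1R YAC libraries and 0 of 3 HPRT1 YAC libraries numbered 8, or 0.485% of those compared, and the opposite held for 5, or 0.303%. The numbers are counts with no test, since Fisher's exact test on 3 against 3 cannot go below 0.1 for a region. When any single library was left out, the counts were 14 to 27 for HPRT1R and 14 to 25 for HPRT1.

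**Figure D5:**
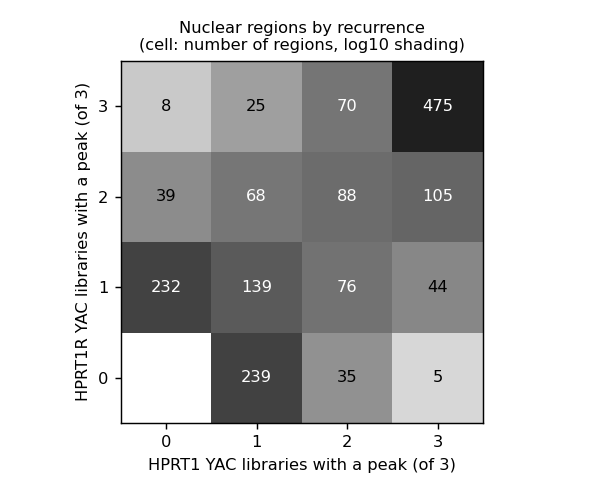
Number of nuclear regions by how many HPRT1R YAC libraries (y axis) and HPRT1 YAC libraries (x axis) held a peak there, shaded on a log10 scale. The corner with 3 and 3 holds 475 regions, the corner with 3 HPRT1R and 0 HPRT1 libraries 8, and the corner with 0 HPRT1R and 3 HPRT1 libraries 5.

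The strongest of the 8 HPRT1R regions was on chromosome XII at 734731 to 734912 (sacCer3 coordinates, as for all chromosomal positions). It lies 300 bp from ACO1, which encodes the mitochondrial aconitase, and its fold enrichments were 4.68, 3.22 and 3.42. Others were 80 bp from GSP1 (chromosome XII, 721510 to 721690), over the divergent starts of VMA10 and BCD1 (chromosome VIII, 187582 to 188000) and 196 bp from RGI2 (chromosome IX, 247481 to 247706). Of the 5 HPRT1 regions, the strongest lay at the start of MLC1 on chromosome VII (306358 to 306665), with 4.15, 3.15 and 3.37. Another overlapped YEF1, an NAD kinase gene, 80 bp from UTR2 on chromosome V (77356 to 77973), with 2.96, 3.53 and 3.52. On chromosomes XIII and XIV, 2 of the 5 overlapped Ty retrotransposon genes, whose many near-identical copies make the assignment of reads to 1 copy uncertain.

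By gene, a summit lay in the promoter (the window from 500 bp before to 100 bp after the annotated start) of 15.1%, 14.4% and 13.0% of 6002 protein-coding genes with the HPRT1R YAC and 14.0%, 14.4% and 14.6% with the HPRT1 YAC. Of these genes, 244 had one in all 6 libraries and 4273 in none. A summit in 3 of 3 HPRT1R YAC libraries and 0 of 3 HPRT1 YAC libraries was found for 13 genes, 0.217% of those compared, and the reverse for 12 genes, 0.2%. Summits can cross the edge of a promoter without any change in the peak, and 7 of the 13 and 7 of the 12 had a peak over the promoter window in at least 1 library of the other construct.

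Among the genes with an HPRT1R summit, the 10 with the highest fold enrichment were PDR11, YIL012W, ALP1, MOT1, SWP1, GSP1, CPP1, NBL1, VMA10 and BCD1. PDR11, a transporter for sterol uptake, shares 1 peak with its neighbour YIL012W on chromosome IX, with 4.22, 4.10 and 3.42, and all 3 HPRT1 YAC libraries also had a peak over that window. ALP1, an arginine transporter, had 4.22, 3.22 and 4.08, and MOT1, an ATPase that removes TATA-binding protein from DNA, had 3.02, 3.52 and 3.42. Both had a peak over the window in 2 HPRT1 YAC libraries, as had NBL1 (2.87, 2.78 and 3.10), a subunit of the chromosomal passenger complex.

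For 5 of the 10, no HPRT1 YAC library had a peak over the promoter. These were SWP1, a subunit of the oligosaccharyltransferase (3.17, 3.37 and 3.10), GSP1, the yeast Ran GTPase of nuclear transport (2.72, 3.52 and 3.26), and CPP1 (2.87, 3.22 and 2.94). VMA10, a subunit of the vacuolar proton pump, and BCD1, needed for box C/D small nucleolar RNAs, share the other peak (2.87, 2.78 and 2.77). Their fold enrichments were below the median of 3.89 for genes with a summit in all 6 libraries.

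With an HPRT1 summit and no HPRT1R summit, the first 10 were TIR3, RMD9, MLC1, MPF1, CIN5, IZH4, SEC28, RPS27B, ECM12 and CCP1. TIR3, a cell wall mannoprotein gene, had 3.70, 3.03 and 4.98, and it lies beside YIL012W in the list above. A peak over its promoter was also present in 2 HPRT1R YAC libraries. No HPRT1R YAC library had a peak over the promoters of RMD9 and MLC1, which share a peak with 4.15, 3.15 and 3.37, or of RPS27B and ECM12, which share a peak with 3.41, 2.77 and 2.78. RMD9 acts on mitochondrial messenger RNAs, MLC1 is a myosin light chain and RPS27B a protein of the small ribosomal subunit.

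CIN5, a stress-responsive transcription factor, had 3.55, 3.40 and 3.08, with a peak over the window in 2 HPRT1R YAC libraries. MPF1 had one in 3. IZH4, a membrane protein of zinc homeostasis, SEC28, a coatomer subunit, and CCP1, the mitochondrial cytochrome c peroxidase, each had one in 1 HPRT1R YAC library.

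Promoter summits were counted for gene lists that fit the strain, medium and constructs. Over all genes 0.217% were at 3 of 3 HPRT1R and 0 of 3 HPRT1 libraries and 0.2% at the reverse, so a count of 0 in a list of 20 genes or fewer says nothing about that list. Growth without leucine makes the leucine and branched-chain synthesis genes relevant, and 38.9% ± 17.3 of its 12 members had a promoter summit with the HPRT1R YAC and 30.6% ± 9.62 with the HPRT1 YAC (SD, n = 3 each). More HPRT1R than HPRT1 libraries held a summit at 4 members, fewer at 1, and 0 were 3 against 0. LEU2 is one of the 12 although it is deleted in this strain, and over the other 11 the shares were 39.4% ± 22.9 with the HPRT1R YAC and 30.3% ± 5.25 with the HPRT1 YAC. ILV5, the acetohydroxyacid reductoisomerase, had a summit in all 6 libraries, at 4.56, 4.54 and 2.77 with the HPRT1R YAC and 4.15, 4.03 and 4.10 with the HPRT1 YAC. Over all genes the shares were 14.2% with the HPRT1R YAC and 14.3% with the HPRT1 YAC, with more HPRT1R libraries at 574 genes and fewer at 599.

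HPRT1 works in purine salvage, so the purine synthesis and salvage genes were counted too, of which 20 of 21 were matched. Promoter summits were at 3, 3 and 4 of the 20 with the HPRT1R YAC and at 0, 3 and 2 with the HPRT1 YAC, with overlap and 0 members at 3 against 0. HPT1, the yeast counterpart of HPRT1, had no promoter summit in any of the 6 libraries. Histone genes had one at 9, 6 and 6 of 10 with the HPRT1R YAC and 7, 4 and 7 of 10 with the HPRT1 YAC. The divergent pair HHT2 and HHF2, for histones H3 and H4, held 1 shared peak in all 6 libraries.

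Ribosomal protein genes, taken by symbol and less RPP1, which encodes a subunit of RNase P, had a promoter summit at 80, 80 and 58 of 137 with the HPRT1R YAC and 81, 80 and 79 of 137 with the HPRT1 YAC. The low value was that of HPRT1R YAC replicate 3, the library with the fewest peaks, and the other 2 HPRT1R YAC libraries lay within 1 gene of the HPRT1 YAC libraries on either side. More HPRT1R libraries held a summit at 20 members and fewer at 34, against 574 and 599 of all genes. RPS27B alone was at 0 of 3 HPRT1R and 3 of 3 HPRT1 libraries, 1 of 137 against 0.2% of all genes.

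Lists of chromatin regulators spanned low and high shares. General regulatory factors (7 genes) had promoter summits at 28.6% with the HPRT1R YAC and 38.1% ± 8.25 with the HPRT1 YAC, remodellers (12) at 2.78% with the HPRT1R YAC and 5.56% with the HPRT1 YAC, and silencing genes (12) at 0% with the HPRT1R YAC and 2.78% with the HPRT1 YAC. Kinetochore and centromere genes (8 matched) had none in any library. Over all genes the shares were 14.2% with the HPRT1R YAC and 14.3% with the HPRT1 YAC, so the general regulatory factors lay above them and the other 3 lists below. In each of these short lists 0 members were at 3 against 0, where 0.217% and 0.2% of all genes were.

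Mating-type and marker genes were read as a check of the strain. Of the 6 a-specific genes, 22.2% had a promoter summit with the HPRT1R YAC and 27.8% with the HPRT1 YAC. STE2, the receptor for the alpha pheromone, had one in 2 of 3 HPRT1R and 3 of 3 HPRT1 libraries. MFA2 had one in 1 library of each construct, MFA1 in 1 HPRT1R library and STE6 in 1 HPRT1 library. BAR1 and ASG7 had none. Of the 4 alpha-specific genes, 0% had a promoter summit with the HPRT1R YAC and 8.33% with the HPRT1 YAC, from MF(ALPHA)2 in 1 library. Over all genes the shares were 14.2% with the HPRT1R YAC and 14.3% with the HPRT1 YAC. Lists this short do not decide the mating type. URA3, HIS3 and MET15, deleted in BY4741, had no peak over the gene in any library. LEU2 (chromosome III, 91324 to 92418), deleted as well, had a peak in all 6 YAC libraries, with highest fold enrichments of 3.32, 2.49 and 4.24 for the HPRT1R YAC and 3.85, 3.28 and 3.52 for the HPRT1 YAC. It had none in the 6 integrated libraries, which carried the construct on chromosome XI and grew in other medium. Where the reads at LEU2 came from was not tested.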

How the data were processed

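ATAC-seq peaks of 6 libraries were used, and 6 libraries of integrated constructs gave only the mirrored alignment and the LEU2 check. Software named in the submitters' processing notes was MACS2 2.1.0, Bowtie2 2.2.9, SAMtools 1.9, bcl2fastq 2.20 and deepTools 3.5.0, with build sacCer3. For their options, duplicate filters and multi-mapping reads, the settings were not given in the sources used here. The authors deposited 1 peak list per library with, at each summit, a fold enrichment (a ratio to local background) and the -log10 of p and of q (a score column was left aside). Fold enrichment and -log10 q served for ranking, filtering and describing peaks inside a list. Read depth is unknown, so no counting intervals are given.

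With a pseudocount of 1, fold enrichment and the Poisson -log10 p fix a whole pileup and a background, accepted within 0.01 of the deposited -log10 p. The insert and vector were split by summit at 100 kb, and their lengths ran to the first and last peak of a construct's 3 YAC libraries. Densities, coverages and backgrounds were compared on the log2 scale. Nuclear length (12070.2 kb) ran per chromosome to its last gene or peak, whichever ended later, and 109 mitochondrial peaks were not used. Gene positions came from the RefSeq table of the sacCer3 assembly, with strand from the systematic names.

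Named items followed a rule: all vector regions, the 8 strongest insert regions, 6 mirrored pairs and 6 unpaired regions per construct, and 10 genes per direction. Members, lists and rules were chosen with earlier results of these data known. Alternatives were stricter peak thresholds (fold enrichment 3, -log10 q 10), a vector boundary 2 kb further along, another contig span, another library-wide level, another overlap, a promoter of 300 bp, a replicate block and leaving out each library; the lists less RPP1 or LEU2 were added after seeing the data. The recovery, alignment and promoter steps were tested on simulated data. Python 3.11.15, numpy 2.4.6, pandas 2.3.3, scipy 1.17.1 and matplotlib 3.10.9 were used.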

Additional observations from a re-analysis of the deposited data

Results flagged for a closer look

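The ratio of local background on the insert to that on the vector, within the same library, differed in sign between the constructs. On the log2 scale it averaged 0.18 ± 0.06 in HPRT1R YAC libraries and -0.33 ± 0.08 in HPRT1 YAC libraries (SD, n = 3 each), a difference of 0.51. It was above 0 in 3 of 3 HPRT1R YAC libraries and below 0 in 3 of 3 HPRT1 YAC libraries. Among peaks enriched 3-fold or more the means were 0.054 on HPRT1R and -0.42 on HPRT1. Over all peaks the exact permutation p was 0.1, the smallest that 3 libraries against 3 can give.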

How the results depend on the processing

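The differences in insert background, insert-to-vector ratio, insert density and summit spacing kept their direction under every alternative run, though not their size for density and spacing, as given with those values. With single libraries left out the values ran from 0.59 to 0.75 (log2) for insert background and -286.7 to -182.7 bp for spacing. With a fold enrichment of at least 3, insert coverage relative to chromosomes turned to -0.059 (log2), the percentile to -34.1 points and nuclear peak number to 17.7; regions in 3 of 3 libraries numbered 7 (HPRT1R) and 8 (HPRT1), mirrored overlap was 31.1%, and 10 nuclear regions were at 0 of 3 HPRT1R and 3 of 3 HPRT1 libraries. With a -log10 q of at least 10, vector density turned to 0.21 and vector coverage to 0.25 (log2), nuclear regions at 3 HPRT1R against 0 HPRT1 libraries numbered 2, and genes at 3 against 0 numbered 0 for HPRT1R and 2 for HPRT1. A boundary 2 kb further along turned vector coverage to 0.061. A consensus of 3 of 3 libraries gave a mirrored overlap of 43.3%, joining at 50% of the shorter peak gave 8 HPRT1 nuclear regions, and a 300 bp promoter gave 6 HPRT1 genes. Leaving out each library gave -0.11 to 0.12 for vector coverage, -66.4 to 10.1 bp for peak width, -2.10 to 3.90 points for the percentile, -44 to 20 for nuclear peaks, 43.2% to 47.7% for mirrored overlap, 14 to 27 (HPRT1R) and 14 to 25 (HPRT1) for nuclear regions, and 25 to 34 (HPRT1R) and 20 to 42 (HPRT1) for genes. Fewer libraries to satisfy raise the last 4 counts by construction, and the other causes were not tested. The replicate numbers did not pair the libraries: deviations of same-numbered libraries over 475 nuclear regions correlated at 0.06, -0.09 and -0.05. With the numbers as a replicate block the insert-to-vector difference was 0.51, with exact sign-flip permutation p = 0.25, the smallest 3 pairs allow. The consensus of 3 of 3 was not run for the count of regions in 3 of 3 libraries, which already requires it.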
